A study of Mus musculus with 13 samples.

Results

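The metallothioneins of the mouse are the 4 genes Mt1, Mt2, Mt3 and Mt4, taken by symbol from the gene table of the deposited matrices. All 4 were present among 27998 gene identifiers. Single-cell RNA-seq (10x Genomics Chromium, which counts 1 tag from the 3′ end of each captured mRNA as a unique molecular identifier, UMI) was carried out on skin of C57BL/6 mice. Whole back skin was taken at the embryonic stages E14.5 and E16.5 and epidermis at the day of birth (P0). At each age there were 2 wild-type (WT) libraries and 2 labelled as knockout (Grhl3-/-), a genotype that lacks the transcription factor GRHL3 in every cell. How Grhl3 RNA compared with these labels is given below. A further P0 WT library was made with the older version 1 chemistry and is described only. After filtering, 5058 to 9157 cells per library remained, with median depths between 7448 and 9976 UMIs per cell.

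Metallothioneins are short, cysteine-rich proteins that bind zinc and copper. Mt1 and Mt2 are made in most tissues, and their transcription is raised by the zinc-sensing factor MTF1 and by glucocorticoids. Mt3 is known from the brain, and Mt4 from stratified squamous epithelia such as epidermis and tongue.

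The 4 genes lie side by side on the plus strand of chromosome 8 within 43131 bases (GRCm38, GENCODE M21). Their order is Mt4 at 94137197 to 94139031, Mt3 at 94152607 to 94154146, Mt2 at 94172664 to 94173568 and Mt1 at 94179082 to 94180327. Each has 3 exons and a coding length of 183 bases (Mt1 and Mt2), 204 bases (Mt3) or 186 bases (Mt4). The longest identical stretch between the main transcripts of any pair was 27 bases, shared by Mt1 and Mt3. Mt1 and Mt2 shared at most 20.

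The 250 bases before the RefSeq start of each gene (GRCm38.p6, plus strand, 5′ to 3′) are shown because the levels of Mt1 and Mt2 went together over the cell classes below. Capitals mark the core of the metal response element bound by MTF1, searched as TGCACNC and TGCGCNC on both strands. No matches overlapped.
Mt4, chr8:94136954-94137203: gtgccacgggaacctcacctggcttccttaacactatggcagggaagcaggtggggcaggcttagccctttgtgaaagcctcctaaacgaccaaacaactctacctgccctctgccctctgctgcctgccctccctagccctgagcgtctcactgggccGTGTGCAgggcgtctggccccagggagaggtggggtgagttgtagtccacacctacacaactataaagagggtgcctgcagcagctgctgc
Mt3, chr8:94152357-94152606: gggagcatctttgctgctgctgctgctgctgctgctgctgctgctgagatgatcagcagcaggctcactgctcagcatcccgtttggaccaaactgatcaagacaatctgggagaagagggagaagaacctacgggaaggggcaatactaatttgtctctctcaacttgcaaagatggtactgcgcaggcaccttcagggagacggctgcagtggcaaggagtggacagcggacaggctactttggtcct
Mt2, chr8:94172368-94172617: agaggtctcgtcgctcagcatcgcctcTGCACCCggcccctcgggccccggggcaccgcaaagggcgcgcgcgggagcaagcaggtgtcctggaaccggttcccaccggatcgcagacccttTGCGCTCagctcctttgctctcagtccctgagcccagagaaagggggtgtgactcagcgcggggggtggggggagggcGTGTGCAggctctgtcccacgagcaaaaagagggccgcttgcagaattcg
Mt1, chr8:94178839-94179088: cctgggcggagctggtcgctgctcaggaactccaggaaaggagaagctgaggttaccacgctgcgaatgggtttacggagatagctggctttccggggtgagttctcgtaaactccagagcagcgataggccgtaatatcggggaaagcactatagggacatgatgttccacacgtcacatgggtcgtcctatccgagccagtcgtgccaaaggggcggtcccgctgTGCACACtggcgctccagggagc

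In these windows the core was present 3 times for Mt2, once for Mt1 and once for Mt4, with no match for Mt3. The RefSeq and GENCODE starts of Mt1, Mt2 and Mt4 differ. The Mt1 window ended at 94179088, past its GENCODE start at 94179082. Bases outside the windows were not searched, so the counts are not the number of such elements per gene. Among 32851 promoter windows of the same length, 21.4% held at least 1 core and 1.26% held at least 3. The AP-1 site TGACTCA occurred once, 79 bases before the start of Mt2, and in 4.46% of all windows. The short site TGTTCT of the glucocorticoid receptor was in none of the 4 windows and in 16.1% of all.

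Cells of each age were clustered without the 4 genes and without Grhl3, and clusters were named from marker genes as "-like" classes of the interfollicular epidermis (IFE), hair follicle and other skin cell types. Of all cells, 16.6% lay in clusters left unnamed. Levels below are CPM, the share of a gene in all UMIs summed over the cells of a class in 1 library on the usual counts-per-million scale, and every test compares libraries with edgeR's quasi-likelihood test over all expressed genes, with Benjamini-Hochberg adjusted p. UMIs of Krt14, a keratin of basal keratinocytes, were also found in classes that are not epithelial. At P0 its level in T cell-like cells ranged from 267 to 847 CPM. The part of such UMIs in the metallothionein levels of these classes was not tested. Grhl3 was lower in Grhl3-/- than WT at E16.5 and P0 over all cells (0.693 and 1.47 against 4.03 and 6.65 CPM at E16.5, 2.42 and 2.81 against 7.0 and 8.29 CPM at P0). At E14.5 the ranges overlapped, with 4.08 and 9.89 CPM in the libraries labelled Grhl3-/- against 4.42 and 7.3 CPM in WT. Whether the counted 3′ end lies in the deleted part is not given in the sources used here. Sex-linked RNA showed a mixed design. The Y-linked gene Ddx3y was present in both WT and both Grhl3-/- libraries at P0, while 4 of the 12 version 2 libraries, all embryonic, carried Xist above 100 CPM in its place. At E16.5 these were both WT libraries and 1 of the Grhl3-/- libraries, so sex was not balanced between genotypes. The study's methods describe both sexes in every group, which these values did not match at P0, in WT at E16.5 or in Grhl3-/- at E14.5.

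Mt1 and Mt2 were high in a few classes and low in most of the dermis. At E14.5, Mt1 ranged from 1060 to 1740 CPM in melanocyte-like cells, from 444 to 678 in IFE basal-like cells and from 441 to 673 in macrophage or Langerhans-like cells. IFE differentiated-like cells, with 355 to 584 CPM, overlapped the latter 2 classes. Pericyte-like and mast-like cells were lower, with 144 to 203 and 121 to 204 CPM, and overlapped each other. Erythroid-like cells, from 40.5 to 711 CPM, spanned most of this order. Fibroblast-like, Schwann-like, muscle-like, dermal condensate-like and endothelial-like cells all stayed at or below 34.5 CPM. At E16.5 melanocyte-like cells were again highest, with 1680 to 2300 CPM, followed by macrophage or Langerhans-like cells with 916 to 1240. IFE differentiated-like cells had 482 to 765 CPM. IFE basal-like cells, with 354 to 609 CPM, now overlapped pericyte-like (423 to 669) and mast-like cells (509 to 558), and endothelial-like cells had 10.7 to 26.5.

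**Figure D1:**
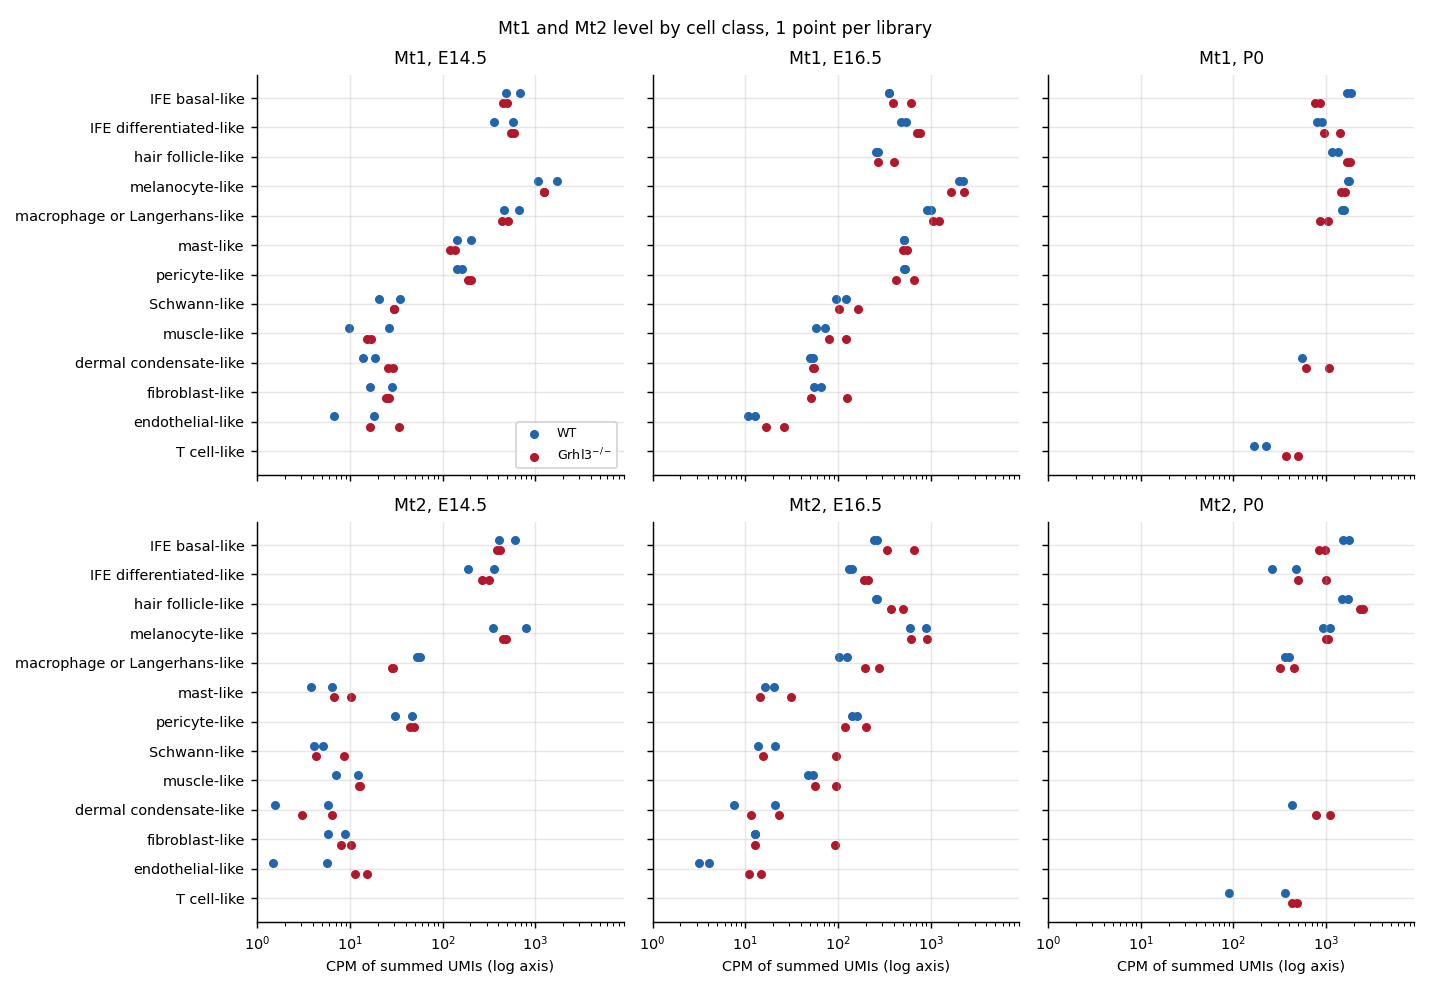
Level of Mt1 (top row) and Mt2 (bottom row) in CPM on a log axis, for each cell class (rows) at E14.5, E16.5 and P0 (columns), with 1 point per library of at least 20 cells, WT in blue and Grhl3-/- in red. Melanocyte-like cells had the highest range of Mt1 at both embryonic ages, from 1060 to 1740 CPM at E14.5, and endothelial-like cells the lowest at E16.5, from 10.7 to 26.5 CPM.

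Against IFE basal-like cells of the same libraries, Mt1 in melanocyte-like cells was higher by 1.26 ± 0.07 (log2 fold change ± SE) at E14.5 (adjusted p = 7.1e-16) and by 2.24 ± 0.11 at E16.5 (adjusted p = 2.1e-19). At P0 the difference over the 4 libraries was 0.39 ± 0.18 and did not pass (adjusted p = 0.096). This value pools genotypes that differed, since Mt1 in WT was 1710 and 1780 CPM in melanocyte-like against 1870 and 1690 CPM in IFE basal-like cells, and in Grhl3-/- 1590 and 1470 against 864 and 759 CPM. These comparisons called 43.8%, 38.7% and 52.3% of genes. Fibroblast-like cells, the collagen-producing cells of the dermis, had far less of both genes than IFE basal-like cells, with Mt1 at -4.55 ± 0.11 and Mt2 at -5.86 ± 0.12 at E14.5 (adjusted p = 4.9e-15 and 9.8e-16). At E16.5 the differences were -2.60 ± 0.10 and -4.01 ± 0.26 (adjusted p = 2.7e-09 and 1.8e-07). Both comparisons called most genes, 70.3% and 69.0% of those tested.

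The ratio of the 2 ubiquitous members also differed between classes. Of the Mt1 and Mt2 UMIs together, Mt2 made up 45.5 to 47.3% in IFE basal-like cells at E14.5. In mast-like cells it was 1.82 to 7.12% and in macrophage or Langerhans-like cells 5.39 to 11%. Hair follicle-like cells at P0, another age, had 55.9 to 57.6% in the 4 libraries. Of other P0 classes, IFE basal-like cells had 47.6 to 52.7% and macrophage or Langerhans-like cells 18.9 to 30.1%. T cell-like (34.7 to 61.1%), dermal condensate-like (43.6 to 56.4%) and Merkel-like cells (36.6 to 57.6%) overlapped the follicle. Mt2 in macrophage or Langerhans-like cells was accordingly lower than in IFE basal-like cells at each age, by -3.32 ± 0.11 at E14.5, -0.95 ± 0.10 at E16.5 and -1.35 ± 0.18 at P0 (adjusted p = 2.6e-18, 4.1e-06 and 7.4e-05, with 72.5%, 68.0% and 64.8% of genes called).

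Within the IFE, Mt2 was lower in differentiated than in basal cells before birth, and Mt1 was higher at E16.5. IFE differentiated-like cells are marked by Krt1 and Krt10, the keratins of the layers above the basal one. Mt2 in these cells was 357 and 188 CPM in WT and 316 and 264 in Grhl3-/- at E14.5, below the 391 to 609 CPM of IFE basal-like cells. The difference was -0.61 ± 0.11 at E14.5 (adjusted p = 0.00084) and -0.87 ± 0.15 at E16.5 (adjusted p = 0.00044). Mt1 differed by 0.07 ± 0.13 at E14.5 (adjusted p = 0.69) and was higher by 0.75 ± 0.09 at E16.5 (adjusted p = 2.6e-05). Over the 4 libraries of P0 neither gene passed, with Mt2 at -0.89 ± 0.36 and Mt1 at 0.11 ± 0.28 (adjusted p = 0.071 and 0.76), but this fit pools genotypes that differed. In WT, Mt1 was 912 and 792 CPM in differentiated-like against 1870 and 1690 CPM in basal-like cells, and Mt2 was 475 and 259 against 1760 and 1540 CPM. In Grhl3-/-, Mt1 was 1410 and 942 against 864 and 759 CPM, and Mt2 was 1010 and 496 against 964 and 831 CPM. Both genes were thus lower in differentiated-like cells of both WT libraries, whereas in Grhl3-/- Mt1 was higher in both and Mt2 was lower in 1 of 2. The classes were not tested within 1 genotype. Of all genes tested in these 3 comparisons, 47.6%, 53.8% and 50.3% were called.

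IFE-like cells were also binned by the share of Krt1 and Krt10 in their Krt1, Krt10, Krt5 and Krt14 UMIs, a measure of how far a cell has left the basal state. In the lowest bin, up to 0.1, the Mt2 share of both genes was 45.8 to 46.7% at E14.5. It was 21.4 to 26.3% in the highest bin, above 0.98. At E16.5 it went from 40.5 to 49.6% in the lowest bin to 5.08 to 11.1% in the highest. The same ends at P0 were 49.4 to 52.9% and 17.4 to 28.1%. The lowest and highest bins did not overlap at any age. Mt1 in WT at E16.5 was highest in a middle bin, 0.5 to 0.9, in 1 library (720 CPM) and in the next bin, 0.9 to 0.98, in the other (705 CPM), above the 355 and 361 CPM of the lowest bin.

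**Figure D2:**
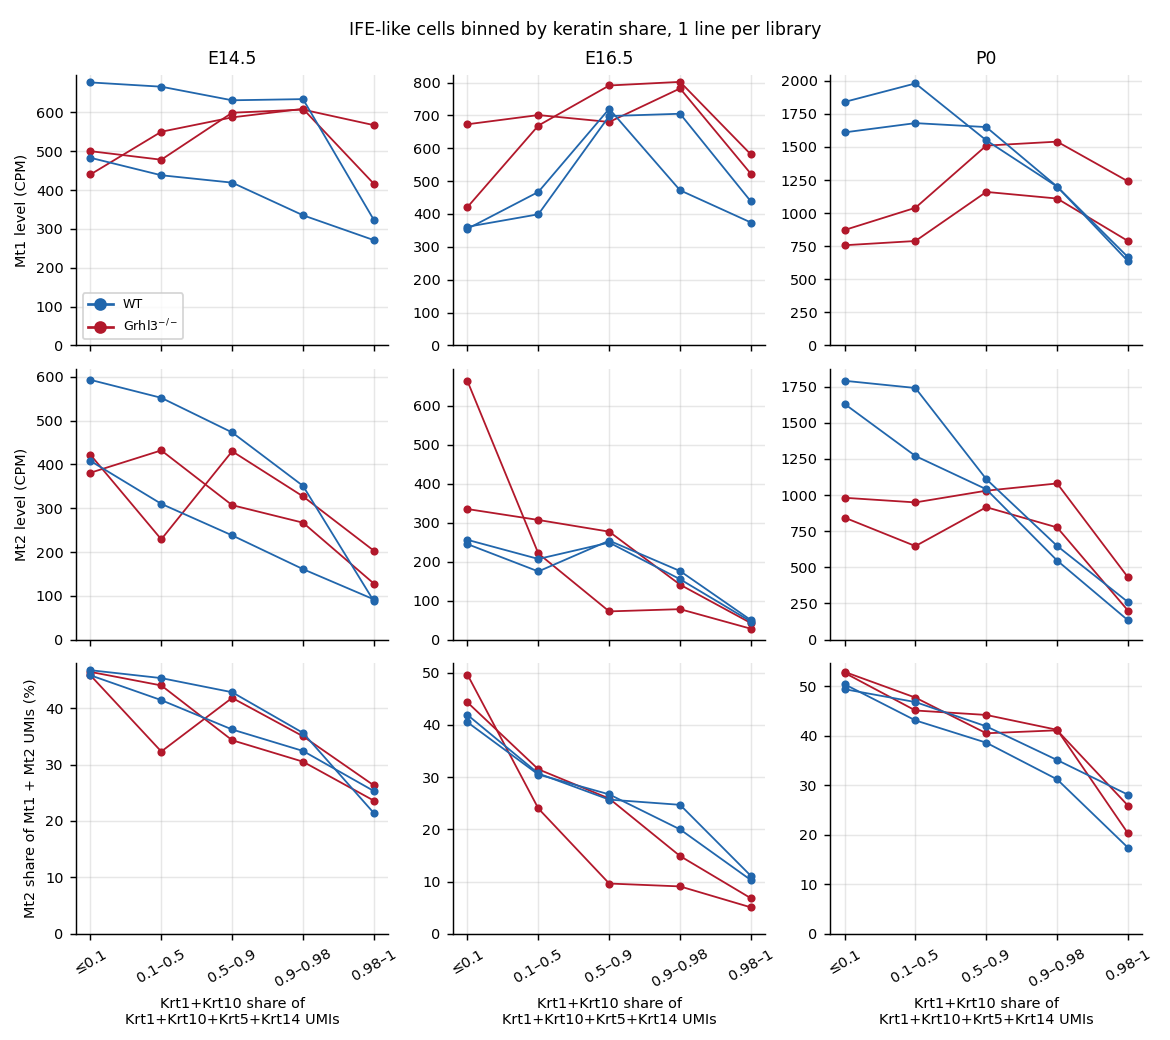
Level of Mt1 (top) and Mt2 (middle) in CPM and Mt2 share of Mt1 and Mt2 UMIs in percent (bottom) in IFE-like cells of E14.5, E16.5 and P0 (columns), binned by the Krt1 and Krt10 share of 4 keratins, with 1 line per library, WT in blue and Grhl3-/- in red. The Mt2 share fell from the first to the last bin in every library, and at P0 the WT and Grhl3-/- lines for Mt1 were apart in the first 2 bins.

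With age, Mt1 and Mt2 in WT IFE basal-like cells first fell and then rose. Mt1 was 678 and 490 CPM at E14.5, 354 and 356 CPM at E16.5 and 1870 and 1690 CPM at P0. Mt2 was 609 and 409, then 264 and 245, then 1760 and 1540 CPM. No 2 ages overlapped for either gene. From E14.5 to E16.5 the change was -0.60 ± 0.18 for Mt1 and -0.89 ± 0.23 for Mt2 (adjusted p = 0.028 and 0.013, with 16.2% of genes called). Without the first WT library of E14.5 these became -0.37 and -0.59, with adjusted p of 0.256 and 0.151. Leaving out either E16.5 WT library also ended the call of Mt1 (adjusted p = 0.101 and 0.099), and leaving out the second that of Mt2 (0.0774). The same step in Grhl3-/- was not called, with Mt1 at 498 and 444, then 396 and 609 CPM, and Mt2 at 421 and 391, then 341 and 658 CPM (0.19 ± 0.18 and 0.40 ± 0.23, adjusted p = 0.53 and 0.27, with 14.1% called). Mt2 passed there without the first Grhl3-/- library of E16.5 (0.78, adjusted p = 0.028). Whether the step differed between genotypes was not tested. In WT, from E16.5 to P0 Mt1 rose by 2.30 ± 0.18 and Mt2 by 2.67 ± 0.23 (adjusted p = 3.7e-08 and 1.0e-07, with 60.6% called). The P0 samples are epidermis after overnight digestion and the embryonic samples whole skin, so age and preparation cannot be told apart. Both WT libraries of E16.5 carried Xist and both of P0 carried Ddx3y, so sex cannot be told apart from this step in WT either. The P0 WT library of the version 1 chemistry had 774 CPM of Mt1 and 537 CPM of Mt2 in its IFE basal-like cells, under those of both version 2 libraries. It was clustered on its own, so its class may differ from theirs in make-up.

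The rise into P0 was shared by the other epidermal classes, and was not confined to them. In WT dermal condensate-like cells mean Mt1 went from 51.9 to 572 CPM and mean Mt2 from 14.3 to 444 CPM, with no test run. Over both genotypes Krt14 in this class was 52.4 to 244 CPM at E16.5 and 1200 to 1420 CPM at P0. Its part in the rise was not tested. In WT hair follicle-like cells Mt1 went from 270 and 257 CPM at E16.5 to 1360 and 1150 CPM at P0, and Mt2 from 267 and 255 to 1720 and 1490 CPM. The changes were 2.36 ± 0.16 and 2.73 ± 0.14 (adjusted p = 2.4e-07 and 2.5e-08, with 45.7% called). WT IFE differentiated-like cells had 482 and 546 CPM of Mt1 at E16.5 and 912 and 792 CPM at P0, a rise of 0.95 ± 0.22 (adjusted p = 0.0044, with 47.7% called). Mt2 rose there by 1.66 ± 0.37 (adjusted p = 0.0034). From E14.5 to E16.5 neither gene passed in this class (0.34 ± 0.22, adjusted p = 0.31, for Mt1 and -0.81 ± 0.36, adjusted p = 0.14, for Mt2, with 19.4% called). In Grhl3-/- IFE basal-like cells the rise from E16.5 to P0 was smaller in size, 0.74 ± 0.18 for Mt1 and 0.90 ± 0.22 for Mt2 (adjusted p = 0.0035 and 0.0048, with 39.7% called). Without the first Grhl3-/- library of E16.5 these were 0.49 and 0.53, with adjusted p of 0.0731 and 0.0813. Grhl3-/- IFE differentiated-like cells rose by 0.81 ± 0.22 in Mt1 and 2.05 ± 0.37 in Mt2 (adjusted p = 0.02 and 0.0035, with 24.7% called; the Mt1 call held in 1 of 4 fits without a library, at 0.59 to 1.02), and Grhl3-/- hair follicle-like cells by 2.68 ± 0.16 and 2.76 ± 0.14 (adjusted p = 1.5e-07 and 2.2e-08, with 28.1% called).

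Several dermal and migratory classes, though not all, rose in Mt1 between E14.5 and E16.5, when both samples were whole skin. In WT mast-like cells, which store granule proteases, Mt1 rose from 204 and 145 CPM to 511 and 518 CPM, or by 1.70 ± 0.17 (adjusted p = 3.0e-06, with 28.1% called). Pericyte-like cells, the contractile cells around small vessels, went from 164 and 144 to 517 and 533 CPM, with Mt1 up by 1.83 ± 0.17 and Mt2 by 2.03 ± 0.23 (adjusted p = 3.9e-06 and 2.7e-05, with 15.2% called). In Schwann-like cells Mt1 rose by 1.96 ± 0.26 and in muscle-like cells by 1.96 ± 0.30 (adjusted p = 1.1e-05 and 0.00051, with 10.3% and 11.8% called). The rise was 1.54 ± 0.39 in dermal condensate-like cells and 1.59 ± 0.38 in fibroblast-like cells (adjusted p = 0.0083 and 0.0098, with 14.8% and 39.8% called). Without 1 WT library the fibroblast-like change ranged from 1.19 to 2.07. It did not pass without the second E14.5 library (adjusted p = 0.0536) or the second E16.5 library (0.0526). The dermal condensate-like change did not pass without the first (1.82, adjusted p = 0.0505) or the second (1.32, adjusted p = 0.124) E14.5 library, nor at resolution 0.5 (1.15, adjusted p = 0.118). In Grhl3-/- fibroblast-like cells Mt1 rose by 1.95 ± 0.37 and Mt2 by 2.68 ± 0.68 over the same step (adjusted p = 0.0046 and 0.017, with 29.7% called). Without the second Grhl3-/- library of E16.5, the highest in both genes, Mt1 was at 1.17 and still passed, and Mt2 was at 0.64 (adjusted p = 0.138). The Mt2 call was also lost without either E14.5 library (adjusted p = 0.0941 and 0.0701). Endothelial-like cells did not share the rise, with Mt1 at 18.2 and 6.73 CPM in WT at E14.5 and 12.6 and 10.7 CPM at E16.5 (-0.12 ± 0.46, adjusted p = 0.90, and -0.08 ± 0.58, adjusted p = 0.95, for Mt2, with 12% called). Without the first E14.5 library their Mt1 and Mt2 differences were 0.85 and 1.27, and neither passed. Genes raised by tissue dissociation rose in several of these comparisons, 11 of 18 in dermal condensate-like, 10 of 17 in Schwann-like, 9 of 17 in muscle-like, 8 of 17 in endothelial-like and 5 of 17 in pericyte-like cells with none lower. In mast-like cells 6 of 15 rose and 2 fell, and in fibroblast-like cells 2 of 18 rose and 6 fell. In WT IFE basal-like cells, where Mt1 and Mt2 were lower at E16.5, 10 of 18 rose and none fell. Glucocorticoid-responsive genes rose as well, 8 of 12 in pericyte-like, 8 of 12 in fibroblast-like, 5 of 10 in muscle-like, 4 of 12 in dermal condensate-like, 4 of 11 in endothelial-like, 4 of 9 in mast-like and 2 of 10 in Schwann-like cells, with 1 lower in fibroblast-like and 1 in mast-like cells. The part of both lists in the Mt1 differences was not tested.

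The macrophage or Langerhans-like class rose at both steps in WT, but did not hold the same kinds of cell at P0. Mt1 was 673 and 462 CPM at E14.5, 916 and 1000 CPM at E16.5 and 1490 and 1570 CPM at P0, with changes of 0.79 ± 0.17 and 0.82 ± 0.17 (adjusted p = 0.013 and 0.00095, with 5.9% and 47.5% called). Mt2 rose by 1.08 ± 0.21 and 1.91 ± 0.19 (adjusted p = 0.0068 and 1.2e-06). At E14.5 and at E16.5 the class was a cluster of whole skin led by Pf4 and C1qb. At P0 it was epidermal and included a cluster led by Cd74 and H2-Ab1. In WT at P0 Mt2 was 593 and 537 CPM in that cluster and 279 and 256 CPM in the one led by C1qb and C1qa. Age, preparation, sex and kind of cell cannot be told apart at the second step. The first step of Mt1 did not pass without the second E14.5 library (0.52, adjusted p = 0.111) or without the first (0.0663) or second (0.0934) E16.5 library, nor that of Mt2 without the second E16.5 library (0.0673). Of 18 genes raised by tissue dissociation, 9 rose and 2 fell at the first step, and 3 rose and 13 fell at the second. Of 12 glucocorticoid-responsive genes, 5 rose at the first step, and 9 rose and 2 fell at the second. Their part in these changes was not tested. In melanocyte-like cells, the pigment cells, Mt1 changed by 0.66 ± 0.19 and then by -0.18 ± 0.19, and neither passed (adjusted p = 0.11 and 0.53, with 1.12% and 26.6% called).

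At P0 the loss of Grhl3 went with lower Mt1 and Mt2 in IFE basal-like cells. Mt1 was 1870 and 1690 CPM in WT and 864 and 759 CPM in Grhl3-/-, and Mt2 was 1760 and 1540 against 964 and 831 CPM. Both Grhl3-/- libraries lay below both version 2 WT libraries for each gene. The version 1 WT library, not tested and clustered on its own, had 774 CPM of Mt1 and 537 CPM of Mt2. The former lay within the Grhl3-/- range and the latter below it. The log2 fold changes were -1.13 ± 0.18 for Mt1 (adjusted p = 0.00013) and -0.88 ± 0.22 for Mt2 (adjusted p = 0.0056), and 37.2% of the 12562 genes tested were called in this comparison. After every cell was thinned to 2000 UMIs, 87.4 and 85.6% of WT cells had at least 1 UMI of Mt1 against 73.0 and 69.7% of Grhl3-/- cells. The version 1 WT library had 71.8%. Without thinning the version 2 shares were 98.3 and 99.2% against 96.9 and 94.9%, at median depths of 7966 to 10324 UMIs. In T cell-like cells of the same libraries, a class outside the epithelium, the thinned shares were 12.6 to 24.3%, at median depths of 6286 to 7918 UMIs.

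The lower level was seen in 2 of the 3 IFE basal-like clusters. In the cluster led by Krt15 and Krt14 Mt1 was 2110 and 1690 CPM in WT and 782 and 692 CPM in Grhl3-/-. In the cluster led by H19 and Krt5 it was 1810 and 1720 against 858 and 716 CPM. The smallest cluster, with the cell division genes Cdc20 and Ccnb2 among its leading genes, overlapped with 1650 and 822 against 1250 and 1180 CPM. Its WT cells were 29 and 26 in number. In the lowest keratin bin, which uses no clusters among IFE-like cells, Mt1 was 1840 and 1610 against 872 and 757 CPM.

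Before birth the same comparison gave no call. Mt1 in IFE basal-like cells was 498 and 444 CPM in Grhl3-/- and 678 and 490 in WT at E14.5 (-0.37 ± 0.18, adjusted p = 1), where 0.00796% of genes were called. At E16.5 it was 396 and 609 against 354 and 356 CPM (0.43 ± 0.18, adjusted p = 0.43), and Mt2 was 341 and 658 against 264 and 245 CPM (0.90 ± 0.23, adjusted p = 0.13), with 0.438% called. The second Grhl3-/- library of E16.5 was the highest in both genes, and without it the Mt2 difference was 0.37. Fitted on the 4 libraries of E16.5 alone, Mt2 passed with 0.93 (adjusted p = 0.038). The effect of genotype at P0 minus that at E16.5 was -1.56 ± 0.25 for Mt1 and -1.77 ± 0.32 for Mt2 (adjusted p = 0.00076 and 0.0016). Sex-linked RNA was balanced between genotypes at P0 but not at E16.5, and the part of sex was not tested. The share of all genes called is not given here for this or the later differences of effects.

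**Figure D3:**
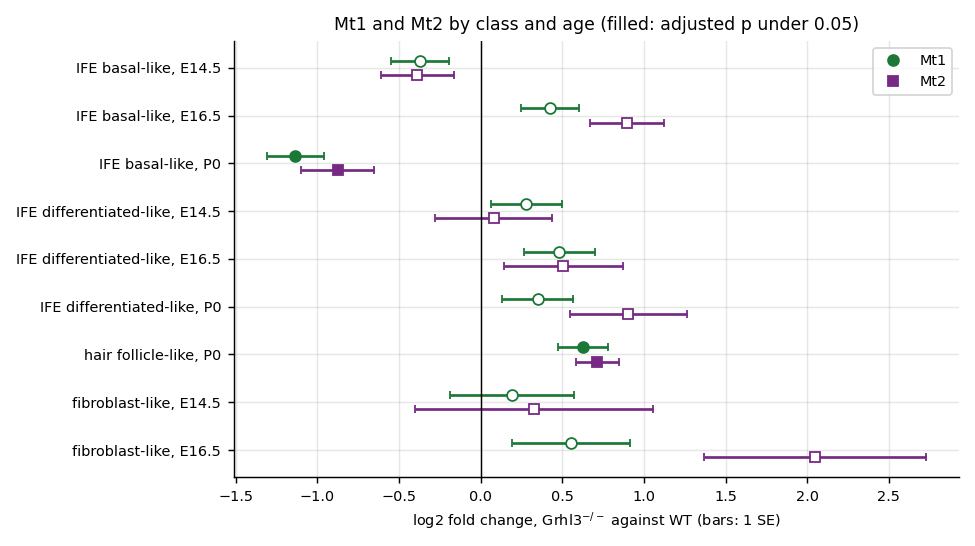
Log2 fold change of Grhl3-/- against WT for Mt1 (green circles) and Mt2 (purple squares) in IFE basal-like, IFE differentiated-like and fibroblast-like cells by age and in hair follicle-like cells at P0, with bars of 1 standard error and filled symbols where the adjusted p was under 0.05. Among these comparisons the filled symbols were IFE basal-like cells at P0, at -1.13 and -0.88, and hair follicle-like cells at P0, at 0.63 and 0.71.

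IFE differentiated-like cells did not share the lower level at P0. Mt1 was 912 and 792 CPM in WT and 1410 and 942 CPM in Grhl3-/- (0.35 ± 0.22, adjusted p = 0.25, with 29.0% called), and Mt2 was 475 and 259 against 1010 and 496 CPM (0.90 ± 0.36, adjusted p = 0.079). All 4 Grhl3-/- values were above the WT values of their gene. The class had a different make-up in each genotype. Its cluster led by Flg and Lor, genes of the granular layer, held 142 and 151 WT cells but 9 and 31 Grhl3-/- cells, with Mt1 at 243 and 260 CPM in WT and 503 and 458 CPM in Grhl3-/-. In its main cluster, led by Krt1 and Krt10, the genotypes overlapped, with 1210 and 1040 against 1440 and 1010 CPM of Mt1 and 630 and 355 against 1040 and 523 CPM of Mt2. With coarser clusters (resolution 0.5) both genes passed, at 0.59 and 1.33 (adjusted p = 0.048 and 0.011). Krt14, the basal keratin, was also higher in these Grhl3-/- cells, 8480 and 3300 CPM against 1040 and 955 CPM, and its part in the difference was not tested. In the highest keratin bin, where Krt14 was 109 to 157 CPM in all 4 libraries, Mt1 was 1240 and 789 CPM in Grhl3-/- and 667 and 636 CPM in WT, while Mt2 overlapped, with 260 and 134 CPM in WT, 431 CPM in the first Grhl3-/- library and a level between the WT values in the second. The granular layer gene Lor still differed in this bin, with 1080 and 1630 CPM in WT and 1.96 and 332 CPM in Grhl3-/-, and its part was not tested. At E14.5 and E16.5 Mt1 differed by 0.28 ± 0.22 and 0.48 ± 0.22 (adjusted p = 0.63 and 0.32) and Mt2 by 0.08 ± 0.36 and 0.51 ± 0.36 (adjusted p = 0.96 and 0.58), with 1.0% and 2.37% of genes called. The genotype effect in IFE basal-like minus that in IFE differentiated-like cells at P0 was -1.45 ± 0.24 for Mt1 and -1.76 ± 0.31 for Mt2 (adjusted p = 0.0058 and 0.0070), over classes with this shift of clusters. Without 1 library these differences ranged from -1.56 to -1.35 and from -2.19 to -1.36, and not every such fit passed.

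Hair follicle-like cells at P0 went in the opposite direction to IFE basal-like cells. Mt1 was 1360 and 1150 CPM in WT and 1830 and 1700 CPM in Grhl3-/-, and Mt2 was 1720 and 1490 against 2480 and 2310 CPM. The groups did not overlap. T cell-like cells of the same libraries, in which no test was run, were also higher in Grhl3-/-, with Mt1 at 227 and 168 against 371 and 496 CPM and Mt2 at 358 and 89.4 against 427 and 492 CPM. Whether these differences are related was not tested. In the follicle the log2 fold changes were 0.63 ± 0.15 and 0.71 ± 0.13 (adjusted p = 0.0067 and 0.0012), with 32.7% of 13439 genes called. Without the second WT library Mt1 was at 0.44 (adjusted p = 0.0508) and without the first Grhl3-/- library at 0.49 (adjusted p = 0.0639). Clustering without integration gave 0.38 (adjusted p = 0.068). The genotype effect in IFE basal-like minus that in hair follicle-like cells was -1.79 ± 0.115 for Mt1 and -1.62 ± 0.116 for Mt2 (adjusted p = 1.8e-07 and 5.4e-07). At E16.5 Mt1 in hair follicle-like cells was 270 and 257 CPM in WT and 272 and 405 CPM in Grhl3-/- (0.31 ± 0.16, adjusted p = 0.88). Mt2 was 267 and 255 against 371 and 502 CPM, without overlap and with a difference close in size to that at P0 (0.69 ± 0.14, adjusted p = 0.18 by edgeR, with 0.0967% called). It passed by DESeq2 (0.71, adjusted p = 0.00785), in a fit of that age alone (0.72, adjusted p = 0.0101) and without the first Grhl3-/- library (0.92, adjusted p = 0.0325), and was 0.46 without the second.

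The follicle was uneven, and its make-up differed between genotypes. Krt28, a keratin of the inner root sheath, was the leading gene of 3 P0 clusters. The 2 without Krt71 among their leading genes, called the Krt28-led clusters here and grouped after their levels had been seen, held 3390 to 4230 CPM of Mt1 and 5230 to 6120 CPM of Mt2, and had the highest mean Mt1 of the P0 clusters. They made up 20.5 and 16.8% of the hair follicle-like cells in WT and 29.2 and 31.8% in Grhl3-/-. Within them Mt1 differed by 0.26 ± 0.09 and Mt2 by 0.20 ± 0.09 between genotypes, and neither passed (adjusted p = 0.082 and 0.14, with 17.1% called). Without the first WT library Mt1 passed at 0.33 (adjusted p = 0.0135). Without these clusters and that led by Krt35, Mt1 in hair follicle-like cells was 843 and 705 CPM in WT and 904 and 904 CPM in Grhl3-/-, and Mt2 was 895 and 741 against 1090 and 1120 CPM. Of the 9 hair follicle-like clusters, Mt1 was higher in both Grhl3-/- than in both WT libraries in 2 and lower in 1, while 6 overlapped. Mt2 was higher in 5 and lower in 1, while 3 overlapped. The third, with Krt71, Krt25 and Krt73 among its leading genes, had less Mt1, 751 and 458 CPM in WT and 548 and 531 CPM in Grhl3-/-.

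**Figure D4:**
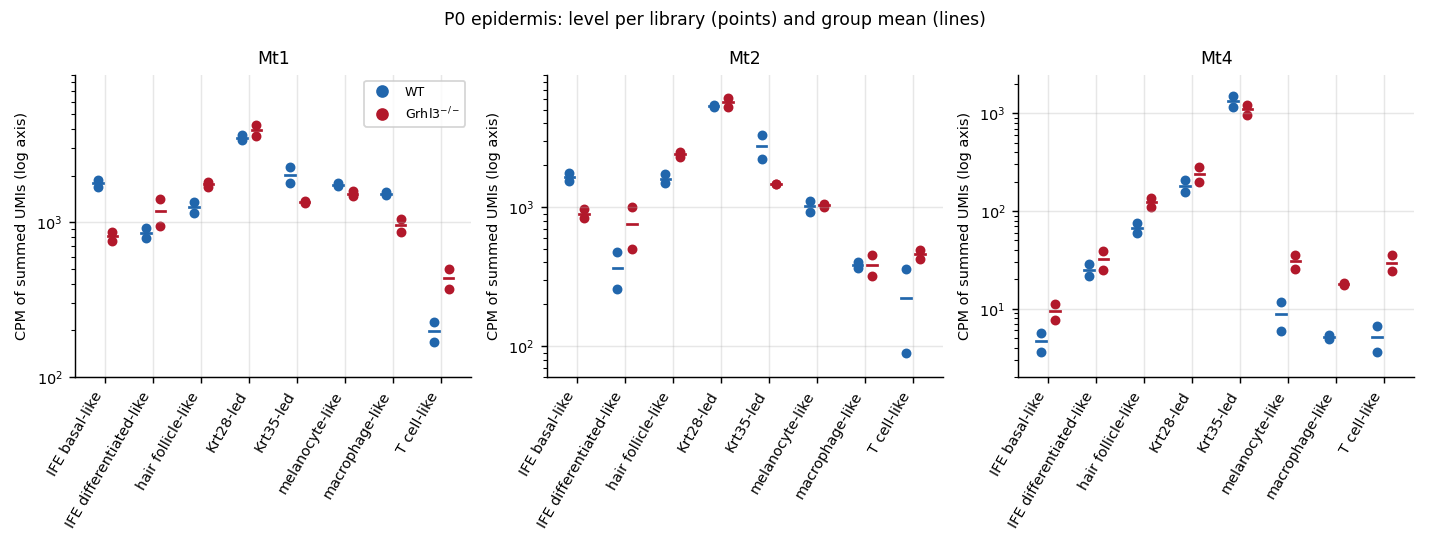
Level of Mt1, Mt2 and Mt4 (panels) at P0 in CPM on a log axis for 8 classes or cluster groups, with 1 point per library and a line at the mean of each group, WT in blue and Grhl3-/- in red. Mt1 was lower in Grhl3-/- in IFE basal-like cells and higher in hair follicle-like cells, and Mt4 peaked in the Krt35-led cluster at 966 to 1500 CPM.

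A further 2 clusters outside the named classes were also high in Mt1 at P0. One was led by Timp3, Igfbp7 and the zinc importer gene Slc39a10, with 2990 and 1900 CPM in WT and 2880 and 2410 CPM in Grhl3-/-. The other was led by Krt6a and Krt6b, keratins of stressed and follicular epithelium, with 3440 and 2510 CPM in WT and 2380 and 1740 CPM in Grhl3-/-. In the former the genotypes overlapped, and in the latter both Grhl3-/- libraries were below both WT libraries.

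Among other classes, Mt1 at P0 was lower in Grhl3-/- macrophage or Langerhans-like cells, at 1050 and 859 against 1490 and 1570 CPM (-0.56 ± 0.17, adjusted p = 0.039, with 12.8% called). This call did not hold without the first (adjusted p = 0.102) or second WT library (0.105) or the second Grhl3-/- library (0.246), or without integration (0.05). Mt2 was 451 and 321 against 400 and 365 CPM (0.13 ± 0.17, adjusted p = 0.67), and turned to -0.61 (adjusted p = 0.033) when the 6% of cells with the highest doublet scores were left out. In the cluster led by C1qb and C1qa, complement genes of macrophages, Mt2 was 279 and 256 CPM in WT and 149 and 152 CPM in Grhl3-/-. The other cluster, led by Cd74 and H2-Ab1, had more Krt14 (655 to 1160 against 133 to 268 CPM) and Mt2 at 593 and 537 against 806 and 575 CPM. At E16.5 Mt2 in macrophage or Langerhans-like cells was 102 and 125 CPM in WT and 194 and 281 CPM in Grhl3-/- (1.06 ± 0.19, adjusted p = 0.0086, with 2.2% called). It did not pass without the first WT library (0.93, adjusted p = 0.119) or the second Grhl3-/- library (0.78, adjusted p = 0.092). In the same comparison 12 of the 18 genes raised by tissue dissociation were lower and none higher in Grhl3-/-, whereas at P0 10 were higher and none lower in these cells, with 6 of 12 glucocorticoid-responsive genes lower. Their part in the Mt1 and Mt2 differences was not tested. In melanocyte-like cells at P0 Mt1 was 1710 and 1780 against 1590 and 1470 CPM, lower in both Grhl3-/- libraries without overlap, and did not pass (-0.22 ± 0.19, adjusted p = 0.48, with 11.8% called). In 3 of the 4 melanocyte-like clusters both Grhl3-/- libraries were below both WT libraries in Mt1 and in Mt2, with Mt1 at 1620 to 1750 against 2100 to 2250 CPM in 1 of them. The remaining cluster had Mt1 at 1350 to 1390 CPM in WT and 1350 to 1470 CPM in Grhl3-/-, and Mt2 was higher there in Grhl3-/- (1220 to 1300 against 885 to 1060 CPM). At E16.5 Mt1 over all melanocyte-like cells differed between genotypes by -0.11 ± 0.19 (adjusted p = 1, with 0.0302% called). In mast-like cells of E14.5 Mt1 was 121 and 136 CPM in Grhl3-/- and 204 and 145 in WT, without overlap but also without a call (-0.47 ± 0.17, adjusted p = 1, with 0.0242% called).

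Fibroblast-like cells gave no call between genotypes. At E14.5 Mt1 was 28.3 and 16.4 CPM in WT and 24.8 and 26.5 CPM in Grhl3-/- (0.19 ± 0.38, adjusted p = 0.84) and Mt2 differed by 0.33 ± 0.73 (adjusted p = 0.86), with 3.18% called. At E16.5 Mt1 differed by 0.55 ± 0.36 (adjusted p = 0.73) and Mt2 by 2.05 ± 0.68 (adjusted p = 0.30), with 1.04% called. The size of the latter came from the second Grhl3-/- library, which had 92.3 CPM of Mt2 where the other 3 had 12.6 to 12.8. Without it the difference was 0.01, and without the first Grhl3-/- library it was 2.86 (adjusted p = 0.0020). In that library a fibroblast-like cluster led by Mfap5, Ly6a and Clec3b had 869 CPM of Mt2 and 855 CPM of Mt1, against 42.1 to 51.7 and 139 to 175 CPM in the others.

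Mt4, the squamous member, was first counted in number at E16.5, outside IFE basal-like cells. At E14.5 it had at most 1 UMI in any library. At E16.5 the 4 libraries together had none in IFE basal-like cells and 198 in IFE differentiated-like cells, which was at least 74.2-fold higher in CPM against a floor of 3 UMIs over the basal group. Per library these were 59 and 108 UMIs in WT (10.4 and 12.7 CPM) and 23 and 8 in Grhl3-/- (8.66 and 4.68 CPM). Hair follicle-like cells at E16.5 had 80 UMIs, at least 68.5-fold higher in CPM than IFE basal-like cells. In WT IFE differentiated-like cells Mt4 rose from E16.5 to 28.7 and 21.7 CPM at P0 (1.32 ± 0.30, adjusted p = 0.0046), and in WT hair follicle-like cells to 74.7 and 59.4 CPM from 15.5 and 6.07 (2.70 ± 0.29, adjusted p = 8.5e-06). At P0 it exceeded IFE basal-like cells by 2.44 ± 0.32 in IFE differentiated-like cells and by 3.73 ± 0.14 in hair follicle-like cells (adjusted p = 0.00063 and 7.6e-07, with 47.9% called in the latter comparison). The IFE basal-like level is not read as expression below, so these differences are over a background level. After thinning, 2.94 and 2.28% of WT and 4.53 and 4.22% of Grhl3-/- IFE differentiated-like cells had a UMI of Mt4. T cell-like cells had 1.59 and 1.05% in WT and 2.96 and 3.68% in Grhl3-/-. In Grhl3-/- the levels were close, 25.1 and 39.0 against 24.2 to 35.1 CPM, and the background part was not tested.

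At P0, 84.4% of all Mt4 UMIs lay in hair follicle-like cells, which were 40.4% of the cells. The cluster led by Krt35, a keratin of the hair cortex, with the hair keratin regulator Hoxc13 among its leading genes, was by far the richest. It had 1500 and 1170 CPM of Mt4 in WT and 1230 and 966 CPM in Grhl3-/-. After thinning, 84.2 and 82.9% of its WT cells and 85.8 and 72.0% of its Grhl3-/- cells had a UMI of Mt4, against 1.05 to 3.68% of T cell-like cells. The genotypes overlapped (-0.19 ± 0.16, adjusted p = 0.64, with 1.66% called). In this cluster Mt2 was lower in Grhl3-/-, 1470 and 1460 against 3300 and 2220 CPM (-0.83 ± 0.16, adjusted p = 0.012), and Mt1 was 1330 and 1380 against 2260 and 1780 CPM (-0.49 ± 0.13, adjusted p = 0.087). The Mt2 call did not hold without the first (-0.49, adjusted p = 0.715) or the second (-1.08, adjusted p = 0.532) WT library, which had 38 and 41 cells.

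**Figure D5:**
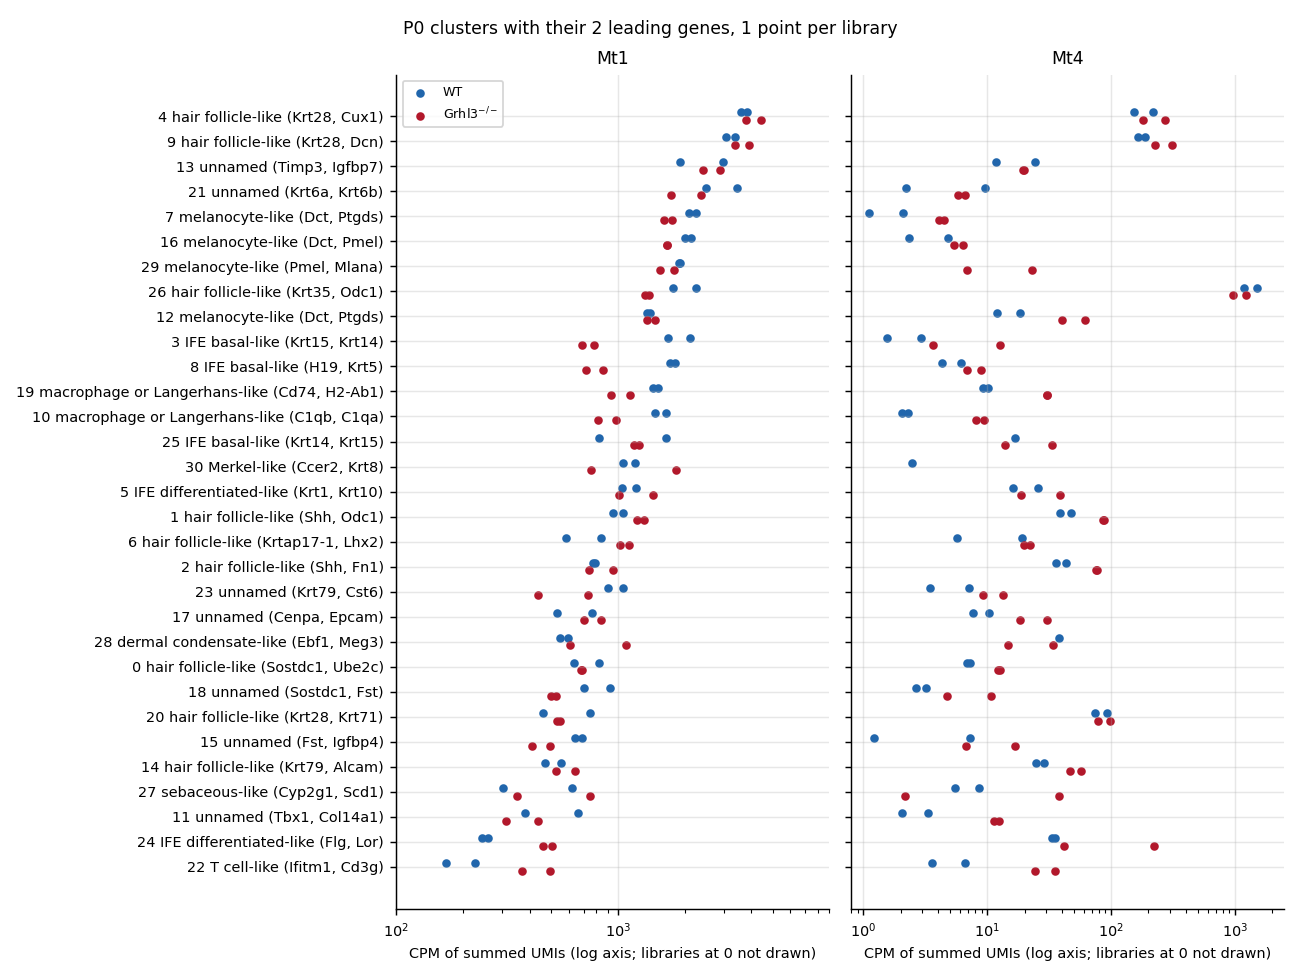
Level of Mt1 (left) and Mt4 (right) in each P0 cluster in CPM on a log axis, with clusters ordered by mean Mt1 and labelled by number, class and their 2 leading genes, 1 point per library, WT in blue and Grhl3-/- in red. The Krt28-led clusters 4 and 9 head the order of Mt1, and the Krt35-led cluster 26 stands alone in Mt4.

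Over all hair follicle-like cells Mt4 was higher in Grhl3-/-, at 136 and 109 against 74.7 and 59.4 CPM (1.01 ± 0.20, adjusted p = 0.0016 by edgeR and 0.15 by DESeq2). The Krt35-led cluster was 1.46 and 1.62% of these cells in WT and 2.91 and 3.07% in Grhl3-/-. Without the Krt28-led and Krt35-led clusters the level was 27.7 and 26.1 CPM in WT and 53.0 and 50.9 CPM in Grhl3-/-. Of the 9 clusters, 6 were higher in both Grhl3-/- libraries and 3 overlapped. In 2 of these 6 the Grhl3-/- level, 12.2 to 12.7 and 19.9 to 22.3 CPM, was under the 24.2 and 35.1 CPM of Grhl3-/- T cell-like cells, and those are not read as expression. From 6.62 and 3.58 CPM in WT, the difference in T cell-like cells was close in CPM to that in the follicle without the Krt28-led and Krt35-led clusters, and its part there was not tested. Within the Krt28-led clusters the difference was 0.51 ± 0.18 (adjusted p = 0.086), and 0.73 without the first WT library (adjusted p = 0.0119).

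Low Mt4 levels were higher in both Grhl3-/- libraries in classes that are not epithelial as well. In melanocyte-like cells Mt4 was 11.8 and 5.87 CPM in WT and 35.9 and 25.5 CPM in Grhl3-/- (1.75 ± 0.34, adjusted p = 0.0074). The call was lost without either Grhl3-/- library (adjusted p = 0.116 and 0.0521). In macrophage or Langerhans-like cells it was 5.34 and 4.86 against 18.2 and 17.7 CPM (1.94 ± 0.31, adjusted p = 0.0027), a call that held without any 1 library. T cell-like cells, not tested, had 6.62 and 3.58 against 35.1 and 24.2 CPM (3 and 3 against 44 and 32 UMIs). The level in IFE basal-like cells was no higher than in these classes, 3.59 and 5.66 CPM in WT and 11.2 and 7.63 CPM in Grhl3-/- (1.06 ± 0.35, adjusted p = 0.029), with 0.699 and 0.791% of thinned WT cells and 1.63 and 1.35% of thinned Grhl3-/- cells holding a UMI. These shares lie within or under the 1.05 to 3.68% of T cell-like cells and are not read as expression. That call did not hold under 7 alternatives, among them DESeq2 (adjusted p = 0.22) and leaving out high doublet scores (0.30, adjusted p = 0.53). In IFE differentiated-like cells Mt4 was 28.7 and 21.7 against 25.1 and 39.0 CPM and did not pass (0.23 ± 0.30, adjusted p = 0.60), and the sign turned at resolution 0.5 (-0.52).

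Mt3, the brain member, was rare in skin. It did not pass the expression filter in either IFE class. The most came from E14.5, where an unnamed cluster led by Fabp7, Ckb and Aldoc, genes of glial cells, held 1383 UMIs in 322 cells. Of these cells, 285 were from the first WT library, as were 1336 of the UMIs and 174 of the 232 neuron-like cells at this age. The first WT library of E14.5 thus stands apart, with 33.2 CPM of Mt3 over all cells where the other 3 had 0.876 to 1.46. Its skin classes also held more Mt3, such as 162 UMIs in fibroblast-like cells against 30 to 53 in the others. Within the cluster 211 cells had Mt3, and 180 of them also had a UMI of Aldoc and 1 of the Merkel cell gene Krt8.

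At E16.5 an unnamed cluster of 42 cells, a mixture with Krt8, Pou4f3 and Gfap among its leading genes, held 107 UMIs of Mt3 in 15 cells, of which 3 had Krt8. By library these were 2 and 1 UMIs in WT and 35 and 69 in Grhl3-/-, from 8, 10, 11 and 13 cells, too few for a test. Merkel-like cells of P0, the touch receptor cells marked by Krt8 and Krt20, had 14 and 11 UMIs in WT and 13 and 5 in Grhl3-/-, from 42, 60, 23 and 8 cells. All 37 of the Merkel-like cells with Mt3 also held Krt8, and 36 held Krt20. None held Gfap. Of the Merkel-like cells without Mt3, 96 held Krt8, 82 held Krt20 and none held Gfap. These genes go with the class and do not set its cells with Mt3 apart. In hair follicle-like cells of P0 Mt3 was 0.693 and 0.363 CPM in WT and 2.28 and 1.68 CPM in Grhl3-/- (2.05 ± 0.41, adjusted p = 0.0021), which rested on 18 and 11 against 104 and 76 UMIs.

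Genes of zinc and copper handling were followed as a list of 30, beside 13 known glucocorticoid-responsive genes and 18 genes raised by tissue dissociation. In IFE basal-like cells at P0, 6 of the 26 metal genes tested were higher and 6 lower in Grhl3-/-, with a median of -0.25 against 37.2% of all genes called. The zinc exporter gene Slc30a1, itself a target of MTF1, fell by 1.76 ± 0.26 and the importer gene Slc39a1 by 1.15 ± 0.29, while the importer gene Slc39a10 rose by 1.13 ± 0.16 (adjusted p = 8.2e-05, 0.0049 and 7.5e-05). Of 12 glucocorticoid-responsive genes tested, 5 were lower and none higher, including Tsc22d3 (-3.56 ± 0.26) and Sgk1 (-2.23 ± 0.16, adjusted p = 1.8e-07 and 1.3e-07). Of 18 dissociation genes, 5 were higher and 4 lower, with Fosb at 1.83 ± 0.30 and Hspb1 at -0.66 ± 0.15 (adjusted p = 0.00021 and 0.0027).

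Hair follicle-like cells, in which Mt1 and Mt2 were higher, also had mostly lower genes in the glucocorticoid list, where 32.7% of all genes were called in either direction. Of its 12 genes tested 7 were lower and 1 higher, with Tsc22d3 at -3.10 ± 0.18 and Sgk1 at -1.58 ± 0.15 (adjusted p = 5.1e-07 and 1.1e-05). Of 27 metal genes, 5 were higher and 6 lower, among them the importer genes Slc39a8 (-1.42 ± 0.16) and Slc39a10 (1.05 ± 0.13, adjusted p = 3.2e-05 and 8.9e-05). Dissociation genes were mostly higher, 11 against 1 lower of 18, with the heat shock gene Hspa1a at 2.36 ± 0.20 and Fosb at 2.16 ± 0.28 (adjusted p = 7.2e-06 and 0.00011). In IFE differentiated-like cells, where 29.0% of all genes were called, 3 metal genes were higher and 11 lower of 26, with Slc39a2 at -3.44 ± 0.68 and Slc30a1 at -2.55 ± 0.27 (adjusted p = 0.0039 and 0.00018), 5 of 12 glucocorticoid genes were lower and none higher, and 3 of 18 dissociation genes were higher and 1 lower. The part of these genes in the metallothionein differences was not tested.

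From E16.5 to P0 in WT IFE basal-like cells, 9 of the 12 glucocorticoid-responsive genes rose and 2 fell, with a median of 1.83. Tsc22d3 rose by 4.24 ± 0.28 and Sgk1 by 3.92 ± 0.19 (adjusted p = 5.1e-09 and 3.2e-10). At the same step in WT melanocyte-like cells, where Mt1 did not pass, 9 of 11 such genes rose and 1 fell. Their median was 1.89, with 26.6% of all genes called. Of the metal genes 8 rose and 6 fell, Slc30a1 by 1.70 ± 0.27 (adjusted p = 4.4e-05). Of the dissociation genes 5 rose and 8 fell, with the heat shock gene Hspa1b up by 2.33 ± 0.19 (adjusted p = 6.2e-08). The background was 60.6% of genes called.

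Across 124 sums of a class in a library, the gene with the pattern most like Mt1 was Mt2 (Pearson r = 0.87 on log2 of CPM + 10, among 5745 genes), followed by Dnase2a, Neat1, Cdh1 and Stxbp2 (0.67 to 0.74). For Mt2 the next after Mt1 were Cdh1, Cdh3, Fxyd3 and Fermt1 (0.80 to 0.83), the former pair coding for cadherins of epithelial junctions. For Mt4 they were Lhx2, Krt79, Casz1, Zbtb16 and Ybx3 (0.72 to 0.77). The sums share libraries and classes, so these values only describe likeness. From cell to cell, Mt1 and Mt2 per 10000 UMIs went together in hair follicle-like cells of P0 with r from 0.83 to 0.89 in the 4 libraries and in IFE basal-like cells of P0 with r from 0.57 to 0.75. These cells share their library and depth.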

How the data were processed

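Single-cell libraries of mouse skin were analysed from the UMI count matrices the authors deposited, 1 per library, holding raw counts per gene and cell barcode. The submitters' processing notes name Cell Ranger 1.3.1, Seurat and the build mm10, while the study's methods give another Cell Ranger version. Of 97363 barcodes 86507 cells were kept, after removal of cells whose mitochondrial UMIs passed 10% or whose detected genes fell outside 600 to 4800 (embryos) or 900 to 7700 (newborns). Any 2 libraries shared at most 131 barcodes.

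Cells of each age were integrated by canonical correlation in Seurat 5.3.0 with 3000 variable genes, leaving out the 4 metallothioneins and Grhl3, and clustered by the Louvain method at resolution 1.0 (31 clusters at P0). Clusters were named where a marker stood among the 10 leading genes by fold (pseudocount 50 CPM) and at least 3 markers were detected. Of the fibroblast-like clusters 11 had no such leading gene and were named by the highest score of the fibroblast list. The score limits and a list of genes barring a name were set after clusters had been seen. Doublets were not removed in the main analysis. Scanpy's Scrublet scores served for an alternative. UMIs were summed per class and library and tested with edgeR 4.0.16 (quasi-likelihood test, TMM, its expression filter, threshold 0.05). Each fit had 1 mean per age and genotype, over those of the 12 version 2 libraries with at least 20 cells of the class. Hair follicle-like cells were named only at E16.5 and P0, and fibroblast-like, mast-like and pericyte-like cells only at E14.5 and E16.5. The Krt28-led and Krt35-led groups were taken only at P0. Classes of an age were compared with the library as a block. SE is the log2 fold change divided by the root of F. Simulated 2-fold and 4-fold changes for the IFE basal-like genotype comparison at P0 were recovered in 67% and 93.9% of cases (12186 genes). The simulation changed 100 genes by each fold and gave 15 false calls. The real comparison called 37.2% of genes, a setting that was not simulated.

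Replicates are 2 mice per group, and floors cover counting error only. Replicate numbers did not pair the libraries. The members, gene lists and comparisons were chosen with earlier results of these data known. Besides 20 comparisons of the design, 36 comparisons and 4 differences of effects were added after levels had been seen. The genes named were the 4 members, Grhl3, at most 4 genes of each list with the largest called change, and the 5 genes most like each of Mt1, Mt2 and Mt4. Alternatives were DESeq2 1.42.0, RLE size factors, no low-count filter, no integration, resolution 0.5, at most 5% mitochondrial UMIs, leaving out the top 6% of doublet scores, leaving out libraries, fits on 1 age and a replicate block.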

Additional observations from a re-analysis of the deposited data

Results flagged for a closer look

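The effect of genotype on Mt1 and Mt2 differed in 3 of 4 comparisons between ages or classes, each by a test of the difference itself added after the levels had been seen. The share of all genes called by these tests is not given here, so whether the members stood out among all genes is not shown. In IFE basal-like cells the log2 effect at P0 minus that at E16.5 was -1.56 for Mt1 (adjusted p = 0.00076) and -1.77 for Mt2 (adjusted p = 0.0016). It remained past the threshold in all 8 fits that left out 1 library, between -1.87 and -1.24 for Mt1 and between -2.20 and -1.25 for Mt2. The same difference in IFE differentiated-like cells did not pass, at -0.13 ± 0.31 for Mt1 and 0.40 ± 0.51 for Mt2 (adjusted p = 0.84 and 0.69), nor in any of 8 fits without 1 library or 4 other settings.

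At P0 the effect in IFE basal-like minus that in hair follicle-like cells was -1.79 for Mt1 and -1.62 for Mt2 (adjusted p = 1.8e-07 and 5.4e-07). Without 1 library it ranged from -1.82 to -1.64 for Mt1 and from -1.66 to -1.50 for Mt2. Each such fit left 1 library in 1 genotype, so its p is not given. The effect in IFE basal-like minus that in IFE differentiated-like cells was -1.45 for Mt1 and -1.76 for Mt2 (adjusted p = 0.0058 and 0.0070). Without 1 library the Mt1 difference ranged from -1.56 to -1.35 and the Mt2 difference from -2.19 to -1.36, and not every such fit passed. These classes come from the same libraries. Groups held 2 libraries each, so none was tested for a library far from the others.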

How the results depend on the processing

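Counts of called genes moved by over 1.5 times in 19 fits under alternatives other than leaving out 1 library and stayed within that in 139. For genotype in IFE basal-like cells, 1 call at E14.5 became 45 with no low-count filter, 3 by DESeq2 and 11 on that age alone (1 to 5 without 1 library), and 55 at E16.5 became 260 with no filter and 153 on that age alone (11 to 27). In IFE differentiated-like cells 113 at E14.5 became 180 at resolution 0.5, 618 with no filter, 243 by DESeq2 and 1294 on that age alone (7 to 28), 267 at E16.5 became 412 at resolution 0.5 and 810 with no filter (36 to 118), and 3268 at P0 became 1293 on that age alone. In fibroblast-like cells 455 at E14.5 became 1626 with no filter and 60 on that age alone (123 to 557), and 149 at E16.5 became 704 and 286 (24 to 94). Without 1 library, hair follicle-like calls at P0 (4399) ranged from 2404 to 4222, those between IFE classes at P0 (5713) from 3707 to 6088, and those between E14.5 and E16.5 in WT from 848 to 1256 (2029, IFE basal-like), 793 to 1284 (2180, IFE differentiated-like) and 3456 to 5135 (5695, fibroblast-like).

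Replicate numbers did not pair the libraries (r of same-numbered deviations from -0.084 to 0.053). With replicate number as a block, calls fell from 4667 to 4201 in IFE basal-like cells at P0, from 113 to 31 and from 267 to 126 in IFE differentiated-like cells at E14.5 and E16.5, and from 455 to 299 in fibroblast-like cells at E14.5. The block also brought Mt2 in IFE differentiated-like cells at P0 past the threshold (0.91).

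The lower Mt1 and Mt2 of Grhl3-/- IFE basal-like cells at P0 held under every alternative run. Mt2 in IFE differentiated-like cells at P0 (0.90) passed at resolution 0.5 (1.33), with no filter (0.85) and by DESeq2 (0.93), and ranged from 0.40 to 1.44 without 1 library. Mt1 there passed at resolution 0.5 (0.59), and Mt4 turned to -0.0148 at 5% mitochondrial UMIs and -0.52 at resolution 0.5 (-0.18 to 0.61 without 1 library). Mt1 in hair follicle-like cells lost its call without integration (0.38) and ranged from 0.44 to 0.67. Mt2 in IFE basal-like cells at E16.5 passed with no filter (0.88) and on that age alone (0.93), and ranged from 0.37 to 1.31. In fibroblast-like cells at E16.5 both genes passed with no filter (0.54 and 2.04), with ranges from -0.23 to 1.05 for Mt1 and from 0.0056 to 2.86 for Mt2. The E14.5 to E16.5 step of Mt1 in WT IFE basal-like cells lost its call without high doublet scores (-0.54), with ranges from -0.88 to -0.37 for Mt1 and from -1.21 to -0.59 for Mt2. With no filter Mt2 passed at this step in IFE differentiated-like (-0.79) and fibroblast-like cells (0.96), and fibroblast-like Mt1 ranged from 1.19 to 2.07. Between IFE classes at P0, Mt2 passed with no filter (-0.93) and by DESeq2 (-0.88), with ranges from -1.32 to -0.47 for Mt2 and from -0.19 to 0.38 for Mt1, and Mt1 at E14.5 ranged from -0.0567 to 0.23. Between hair follicle-like and IFE basal-like cells at P0, Mt2 passed at 5% mitochondrial UMIs (0.69) and with no filter (0.69), with ranges from 0.33 to 0.90 for Mt2 and from -0.0785 to 0.56 for Mt1. Genotype differences at E14.5 ranged from -0.0388 to 0.69 (Mt1) and -0.33 to 0.64 (Mt2) in IFE differentiated-like cells and from -0.20 to 0.68 and -0.0014 to 0.69 in fibroblast-like cells. Mt2 in macrophage or Langerhans-like cells at P0 turned to -0.61 without high doublet scores (-0.13 to 0.36 without 1 library), and Mt4 of the Krt35-led cluster ranged from -0.39 to 0.0295. In WT endothelial-like cells the E14.5 to E16.5 differences turned to 0.065 (Mt1) and 0.10 (Mt2) without high doublet scores, and ranged from -0.62 to 0.85 and from -0.66 to 1.27 without 1 library. Mt1 between genotypes in melanocyte-like cells at E16.5 ranged from -0.36 to 0.0891, and in hair follicle-like cells at E16.5 from -0.00767 to 0.59. The E14.5 to E16.5 step in Grhl3-/- IFE basal-like cells ranged from -0.13 to 0.45 for Mt1 and from -0.14 to 0.78 for Mt2. The cause of these changes was not tested. Of the levels recomputed under alternatives, 438 moved by less than the spread between libraries and 54 by more, and of the shares of cells with a UMI, which include those without thinning, 292 moved by less and 144 by more. With 2 libraries a group, changes that miss the threshold are not shown to be absent.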
